A study of Mus musculus with 6 samples.

Results

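The 10 genes examined here encode the DLK-JNK stress kinase cascade and the enzymes that decide whether an injured axon is kept or lost. They are Map3k12 (the kinase DLK), Map3k13 (its relative LZK), the scaffolds Mapk8ip1 (JIP1) and Mapk8ip3 (JIP3), the c-Jun N-terminal kinases Mapk8, Mapk9 and Mapk10 (JNK1, JNK2 and JNK3), the injury-responsive transcription factor Sox11, and the axonal NAD enzymes Nmnat2 and Sarm1. They were chosen by name, as 10 of the 21938 protein-coding genes of the annotation, and carry 33 of its 41525 transcription start sites (TSS). A peak was assigned to one of them if it overlapped 2.5 kb on either side of any of its TSS, its gene body, or 20 kb on either side of the body. Of the 39942 regions formed by merging the peaks of all samples, 51 were assigned in this way.

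DLK is known as a sensor of axonal damage. In injured retinal ganglion cells, the neurons whose axons form the optic nerve, it signals through a kinase relay to the JNKs, which act on transcription factors such as Jun. JIP1 and JIP3 hold the kinases together and attach them to axonal transport motors. NMNAT2 is a short-lived enzyme that makes NAD in the axon, and its loss activates SARM1, an enzyme that destroys NAD and drives axon degeneration.

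The samples were single bulk retinas of WT mice that were 3 months old at the first pressure elevation. In the 4xIOP group (3 retinas) the intraocular pressure of 1 eye had been raised to 30 mmHg for 1 h on 4 occasions, and the control group (3 retinas) was the contralateral eye, left untreated. Retinas were taken on day 2 counted from the fourth elevation, and chromatin carrying histone H3 acetylated at lysine 27 (H3K27ac), a mark of active promoters and enhancers, was immunoprecipitated and sequenced. The labels do not say which 2 eyes came from the same animal. Their treatment text also describes dasatinib or vehicle injection, but no sample is labelled with either. Nothing in the labels states that the replicates were separate experiments, so p-values measure the spread between these samples only. A control eye of the same animal is not an eye of an animal that was never treated, which limits it as a baseline.

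Each sample was represented by 1 peak list. In 4 of the 6 lists (control replicates 1 and 2, 4xIOP replicates 1 and 2) the group name that the list carries is that of the other group. The samples were kept as labelled, and every direction below holds for the labels. Lists held 16195 to 36509 peaks, with control replicate 3 the longest. The fragments at each summit were recovered from the fold and p-value of the peak. The weakest peaks of a list stood on 9 to 12 fragments, against a genome mean of 2.01 to 3.38. A peak missing from a list means that none was called at that depth over the local background, which differs between places. It does not mean that the mark was absent. Among photoreceptor markers, the promoters of Nrl, Rcvrn and Pde6b were marked in all 6 lists, that of Crx in 5 and that of Arr3 in none. Of 7 retinal ganglion cell markers, 0 were marked in all lists, 4 (Pou4f1, Pou4f2, Sncg and Nefl) in none, and the number marked per list was 0 to 2 in control and 0 to 1 in 4xIOP. The part of this in the results below was not tested. In bulk tissue, fewer cells of a type and less of the mark per cell cannot be told apart.

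Promoters of 7 of the 10 genes (Map3k12, Map3k13, Mapk8ip1, Mapk8ip3, Mapk8, Mapk9 and Sarm1) had a peak in all 6 lists, where 39.5% of all protein-coding genes did. Counting only peaks whose summit was nearer to a start of the gene than to one of any other gene, an alternative added after the data were seen, 5 remained in all 6 lists, Sarm1 was marked in 5 lists and Map3k13 in none. Under that rule 6960 of the 21938 protein-coding genes were marked in all 6 lists. Mapk10 was marked in 4 lists, the 3 controls and 4xIOP replicate 3. Nmnat2 was marked in 2, control replicates 1 and 3. Sox11 had no peak in any list, neither at its promoter nor anywhere in its body and 20 kb flanks. Promoters marked in no list made up 42.4% of all genes.

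**Figure D1:**
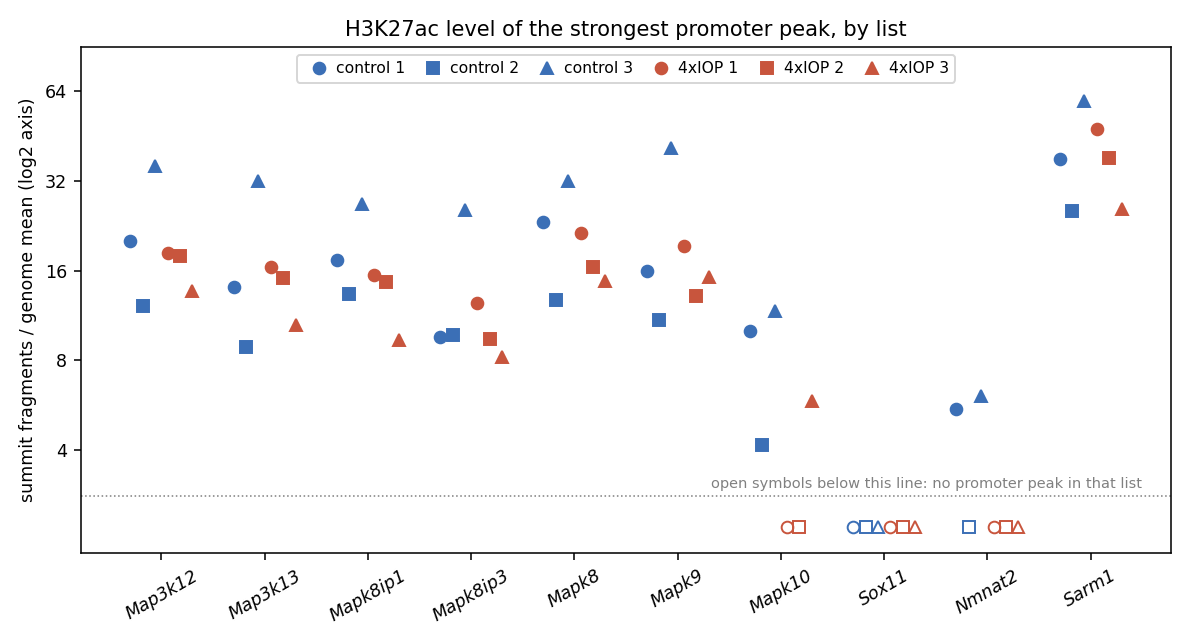
Level of the strongest promoter peak of each gene in each list, as summit fragments divided by the genome mean of the list (log2 axis; blue control, red 4xIOP, symbol shape by replicate). Open symbols mark lists without a promoter peak: 2 for Mapk10, 4 for Nmnat2 and 6 for Sox11. Control replicate 3 is the highest symbol for all 7 genes with a peak in every list.

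The kinases at the head of the cascade were considered first. Map3k12 (chr15:102497646-102517064, minus strand, GRCm38) had 44, 41 and 89 fragments at its strongest promoter summit in the control lists (replicates 1, 2 and 3, the order used throughout), and 37, 38 and 35 in the 4xIOP lists. Control replicate 3 stood above the other 5 lists, which lay close together. The peak that was found in all 6 lists (chr15:102510199-102510803) sat on an internal TSS at position 102510700, 6.36 kb downstream of the first TSS. The region at the 2 upstream TSS (chr15:102516290-102517819) was called in 4 lists, 2 of each group, with a peak that covered these starts in control replicate 3 only, and lies within 2.5 kb of the start of Tarbp2, which encodes a partner of Dicer. The 89 fragments of control replicate 3 came from a further region on the Tarbp2 side, at -1463 bp from the first TSS.

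Map3k13 (chr16:21794346-21933439, plus strand) had 31, 30 and 79 fragments in control and 33, 32 and 27 in 4xIOP. Again control replicate 3 was high and the other lists overlapped. In 5 lists the first TSS was flanked by a peak on each side, with summits at -256 to -165 bp on the upstream side and at 168 to 265 bp on the downstream side. In control replicate 3 they were joined into 1 peak of 1002 bp. The noncoding RNA 1300002E11Rik begins at nearly the same base on the same strand, so the mark cannot be given to either. The other 2 annotated starts of Map3k13, 31.6 and 97.6 kb further downstream, had no peak in any list.

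The scaffolds followed. Mapk8ip1 (chr2:92383676-92401263, minus strand) had 38, 45 and 66 fragments in control and 31, 31 and 24 in 4xIOP. All 3 control values lay at or above 38 and all 3 4xIOP values at or below 31, but these are raw fragments, and after correction for the level of the whole list the groups overlapped, as the comparison of levels shows. The second TSS of the gene, 8.53 kb downstream, was marked in 2 lists only, control replicate 3 and 4xIOP replicate 3. Mapk8ip3 (chr17:24892153-24936977, minus strand) had 21, 33 and 63 fragments in control and 25, 20 and 21 in 4xIOP. Its 7 annotated starts lie within 83 bp of each other, inside 1 merged region. Each list had a peak in that region, but those of control replicates 1 and 2 and 4xIOP replicate 2 lay to the sides of the starts and covered none of them.

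Of the 3 JNK genes, the broadly expressed Mapk8 and Mapk9 were marked in every list and the mainly neuronal Mapk10 was not. Mapk8 (chr14:33377898-33447158, minus strand) had 51, 43 and 79 fragments in control and 43, 35 and 38 in 4xIOP. Mapk9 (chr11:49846751-49886421, plus strand) had 35, 37 and 102 fragments in control and 39, 28 and 39 in 4xIOP. In both genes control replicate 3 was the highest list, and the remaining values of the groups touched (Mapk8) or overlapped (Mapk9). The summits lay just inside the gene, 164 to 446 bp downstream of the nearest TSS in Mapk8 and 218 to 401 bp in Mapk9. Both genes also have annotated internal starts, 36.2 kb downstream in Mapk8 and 7.46 to 7.51 kb downstream in Mapk9, and none of these had a peak in any list.

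Mapk10 (chr5:102907948-103211334, minus strand), a gene of 303387 bp, was weaker. Its strongest promoter summit had 22, 14 and 29 fragments in the control lists (95% Poisson intervals 13.8 to 33.3, 7.65 to 23.5 and 19.4 to 41.6, for counting error only). In 4xIOP, replicates 1 and 2 lacked a promoter peak and replicate 3 had 15 fragments (8.40 to 24.7). The control peaks formed a region just downstream of the first TSS (chr5:103210562-103211209) that each control list held and none of the 4xIOP lists did. The peak of 4xIOP replicate 3 was another one, with a summit 1397 bp downstream of the nearest TSS, and a peak at the same place was also found in control replicate 3. Of all 39942 regions, 1.05% were held by every control list and by none of the 4xIOP lists, and 0.015% the other way round. The intervals of control replicate 2 and 4xIOP replicate 3 reached below the weakest summits of those lists (12 and 10 fragments). The 3 internal starts of Mapk10, 111 to 184 kb downstream, were marked in no list.

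**Figure D2:**
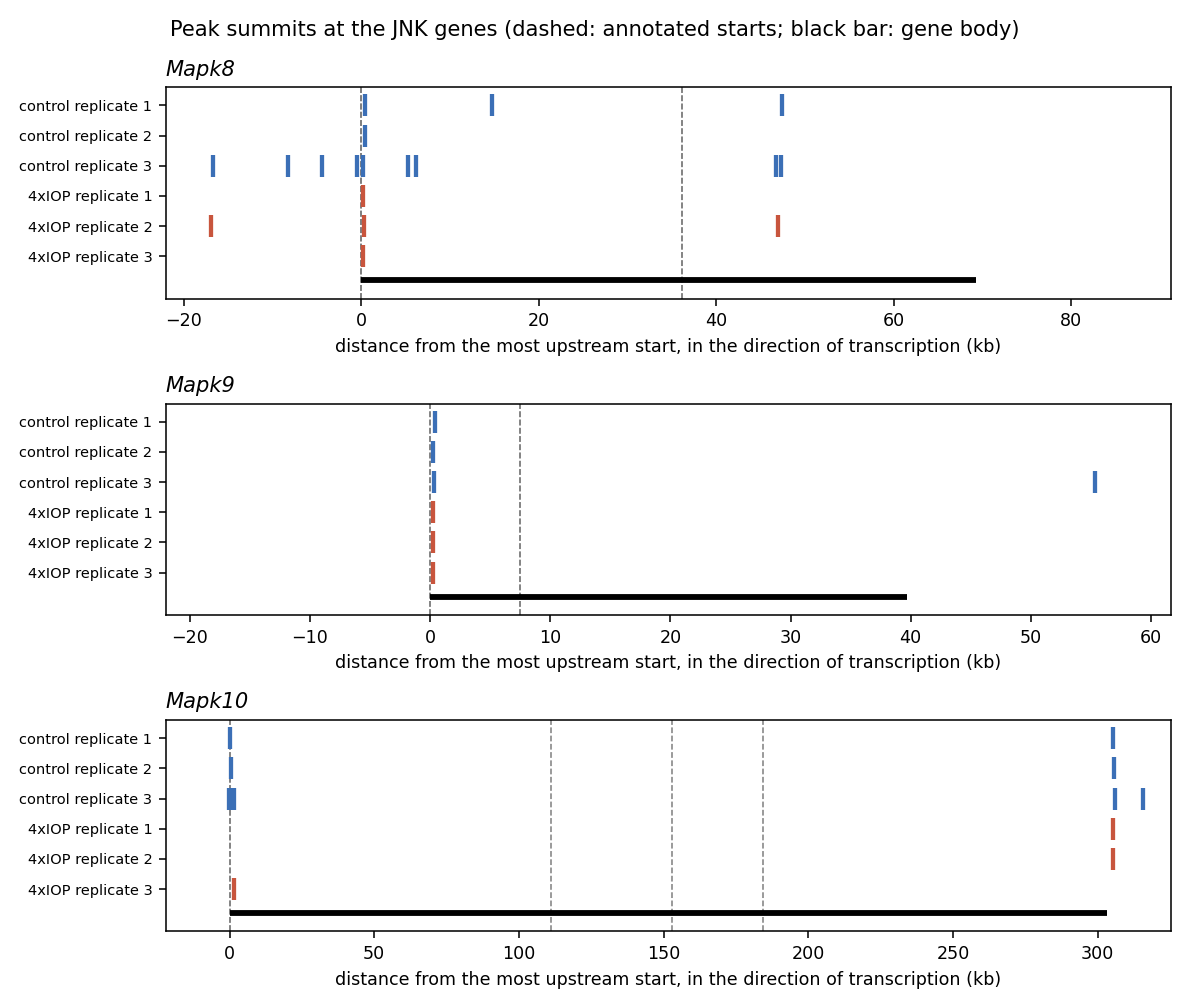
Positions of peak summits (vertical ticks; blue control, red 4xIOP, 1 row per list) at Mapk8, Mapk9 and Mapk10, as distance in kb from the most upstream start in the direction of transcription, with dashed lines at annotated starts and a black bar for the gene body. Ticks gather at the first start of Mapk8 and Mapk9 in all 6 lists, while 4xIOP replicates 1 and 2 have none at the first start of Mapk10.

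At the axonal end of the pathway the genes differed from one another. Sarm1 (chr11:78472330-78497754, minus strand) had the highest values of all, 83, 86 and 147 fragments in control and 96, 81 and 66 in 4xIOP. The summits of these peaks lay at -1623 to -1532 bp from the Sarm1 TSS, at the start of Vtn, which encodes the matrix protein vitronectin and is transcribed away from Sarm1. The region nearest to the Sarm1 start (chr11:78496953-78497587), where the peak of control replicate 3 alone covered an annotated TSS, was called in 4 lists, with 48 and 87 fragments in control replicates 2 and 3 and 45 and 40 in 4xIOP replicates 2 and 3. Its fold lay low in each list, at a mean percentile of 4.41, fold being a ratio to the local background of each peak. Nmnat2 (chr1:152954993-153119261, plus strand) had 12 fragments in control replicate 1 (6.20 to 21.0) and 15 in control replicate 3 (8.40 to 24.7), at summits 74 and 816 bp downstream of its only TSS. These were 2 separate regions, each in 1 list, so that no Nmnat2 promoter region was found in more than 1 list. Sox11 (chr12:27334264-27342574, minus strand) had no peak called in any of the 6 lists.

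It was then asked what distinguished marked from unmarked starts. Of the 33 starts, 17 were marked in all 6 lists, 6 in 1 to 5 lists and 10 in none, or 51.5% and 30.3% in all and in none against 39.1% and 42.1% of the starts of all protein-coding genes. Starts a few bases apart share nearly the same window but were counted singly. The 7 starts of Mapk8ip3 were among the 17, so these shares depend on how many starts are annotated per gene. All 7 genes with a peak in every list had more than 1 start, and 3 of them (Map3k13, Mapk8 and Mapk9) also had a start with no peak in any list. Among all 4928 genes of this kind, 18.8% did. The bases before each start were read from the RefSeq promoter table of GRCm38.p6, which held 12 starts of 9 of the 10 genes and none of Mapk8ip1. CpG content was taken as the ratio of CpG dinucleotides observed to those expected from C and G in the 250 bases before the start. Its median was 0.789 for all starts marked in all 6 lists and 0.210 for those marked in none.

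For Mapk8 and Mapk10, a start with the mark and one without are shown, followed by the 2 genes whose marks were rare or absent. Each is given 5′ to 3′ on the strand of the gene and ends before the first annotated exon base. Capitals mark matches, on either strand, to TGANTCA (AP-1 type), TGACGT (the CRE/ATF type), TAATCC (CRX/OTX type) and GGGCGG (the GC box).
Mapk8 first start, chr14:33447159-33447408, minus strand: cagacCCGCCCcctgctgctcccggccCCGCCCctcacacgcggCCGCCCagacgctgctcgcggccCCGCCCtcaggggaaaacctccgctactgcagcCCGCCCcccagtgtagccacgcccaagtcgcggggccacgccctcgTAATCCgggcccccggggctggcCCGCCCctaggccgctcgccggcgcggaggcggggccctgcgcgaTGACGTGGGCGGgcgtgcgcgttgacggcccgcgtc
Mapk8 internal start, chr14:33411025-33411274, minus strand: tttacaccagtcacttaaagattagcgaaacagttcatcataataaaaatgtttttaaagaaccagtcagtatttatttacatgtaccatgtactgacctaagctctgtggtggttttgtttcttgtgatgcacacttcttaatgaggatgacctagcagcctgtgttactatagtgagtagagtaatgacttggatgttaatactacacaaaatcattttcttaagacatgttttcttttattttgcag
Mapk10 first start, chr5:103211335-103211584, minus strand: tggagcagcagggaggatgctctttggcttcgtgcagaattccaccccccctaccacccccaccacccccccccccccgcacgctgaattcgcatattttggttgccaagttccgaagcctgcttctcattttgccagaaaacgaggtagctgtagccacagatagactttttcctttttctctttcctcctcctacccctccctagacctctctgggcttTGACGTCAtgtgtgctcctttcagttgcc
Mapk10 internal start, chr5:103058393-103058642, minus strand: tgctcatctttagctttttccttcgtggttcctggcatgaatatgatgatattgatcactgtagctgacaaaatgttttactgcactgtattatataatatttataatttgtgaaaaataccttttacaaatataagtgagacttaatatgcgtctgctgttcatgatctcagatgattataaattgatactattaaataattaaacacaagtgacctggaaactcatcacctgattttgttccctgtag
Nmnat2 start, chr1:152954851-152954992, plus strand: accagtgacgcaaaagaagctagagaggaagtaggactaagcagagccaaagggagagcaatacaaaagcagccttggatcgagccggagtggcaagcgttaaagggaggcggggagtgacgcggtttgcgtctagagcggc
Sox11 start, chr12:27342719-27342968, minus strand: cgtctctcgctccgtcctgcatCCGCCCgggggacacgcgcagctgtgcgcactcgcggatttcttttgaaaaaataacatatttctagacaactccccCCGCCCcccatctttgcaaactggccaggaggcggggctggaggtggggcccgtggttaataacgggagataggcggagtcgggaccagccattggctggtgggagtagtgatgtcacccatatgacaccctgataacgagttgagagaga

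The first start of Mapk8 was rich in CpG (0.943) and GC boxes, of which 7 were found, and it was marked in all 6 lists. Its internal start had a CpG ratio of 0.145 with no match to any motif, and no peak. In Mapk10 the contrast was smaller, with ratios of 0.414 at the first start, marked in 4 lists, and 0.329 at the internal start, marked in none. The capitals in the first Mapk10 promoter are a palindrome that holds TGACGT on both strands, a sequence present in 6.47% of all promoters of the table. The unmarked Map3k13 start had a CpG ratio of 0. Sox11 and Nmnat2 went the other way. Their ratios of 0.810 and 0.761 lay at percentiles 53.7 and 45.5 of the starts marked in every list, while the promoters were marked in 0 and 2 lists. Over the 12 starts, 7 held a GC box (32.7% of all promoters), 2 TGACGT, 1 TAATCC and 0 TGANTCA (6.25% and 6.75% for the last 2 in all promoters). A match describes the letters only and says nothing of a bound factor. The unmarked internal starts come from the annotation, and whether transcription begins at them in retina was not tested.

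**Figure D3:**
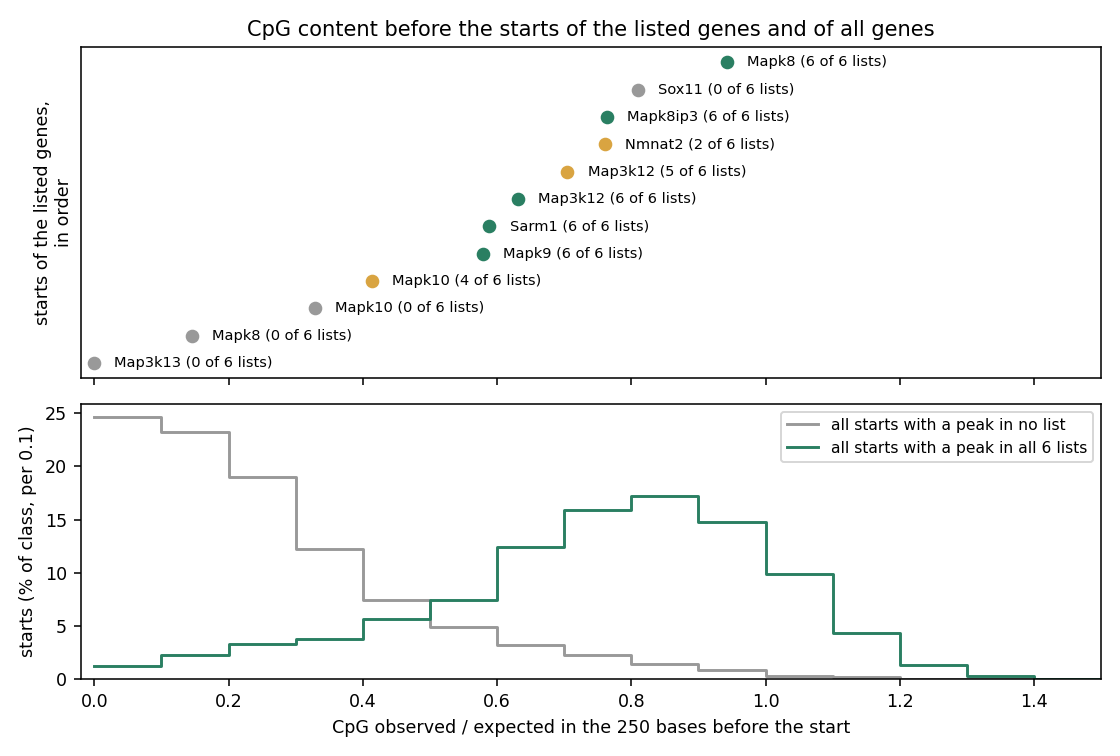
CpG ratio (observed over expected) in the 250 bases before 12 starts of the listed genes, in order (top; vertical position has no scale), and its distribution over all starts with a peak in no list (grey) and in all 6 lists (green), in percent of each class per step of 0.1 (bottom). Sox11 (0.810) lies among the green starts but had no peak.

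The groups were compared first by the number of genes marked. Of the 10 genes, the control lists marked 9, 8 and 9 and the 4xIOP lists 7, 7 and 8, with means of 8.67 ± 0.577 and 7.33 ± 0.577 (SD, n = 3). The groups touched at 8. The difference of -1.33 genes came from Mapk10 and Nmnat2 alone, and it was 0 once every list was cut to its strongest 16195 peaks. The share of all protein-coding genes that were marked was also lower in 4xIOP, at a mean of 45.9% against 50.6% in control. The lists were split into 2 classes by whether their shortest peak was above 200 bp (220 to 232 bp) or below it (187 to 195 bp). These are called classes of fragment length here, but the sample labels give no fragment length. In the longer class the count was 9 in 1 control list and 7 in both 4xIOP lists. In the shorter class it was 8 and 9 in control and 8 in 4xIOP.

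Mapk10 (3 control lists, 1 4xIOP list) and Nmnat2 (2 and 0) were the 2 genes marked in at least 2 more control than 4xIOP lists. This held for 2.69% of all genes and for 14.9% of the 3970 genes marked in 1 to 5 lists, the class that both belong to, and for 0.201% of all genes in the opposite direction. In the 2 lists whose carried name is that of the label (control replicate 3 and 4xIOP replicate 3), Mapk10 was marked in both and Nmnat2 in the control list only, with 9 and 8 genes marked. By carried name, Mapk10 was marked in all 3 lists named for the pressure elevation and in 1 of 3 named as control, and Nmnat2 in 1 of each. The direction of the Mapk10 difference, and with it that of the count of genes marked, would therefore turn if the carried names and not the labels were right. Marking in every list of one group and none of the other was found for 0 of the 10 genes, against 0.36% of all genes for control and 0% for 4xIOP. This count rose to 1 without control replicate 2 (Nmnat2) or without 4xIOP replicate 3 (Mapk10), and to 1 (Mapk10) with promoters of 1 kb on either side. Over all genes the control-only count was 79, and it was 277, 157 and 78 under these 3 settings.

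The level of the mark was then compared for the 7 genes with a peak in all lists. Level is the log2 of summit fragments over the genome mean of the list, minus the median of that list over the 8669 genes marked in all 6. Before this centring control replicate 3 was highest for all 7 genes, and its median over every promoter it marked, 24.3 times the genome mean, was also above the 10.4 to 15.9 of the other lists. In the centred control levels Sarm1 with the Vtn peak came first, at 1.17, higher than 98.5% of the 8669 genes. Mapk8 (0.30), Map3k12 (0.27), Mapk9 (0.17) and Mapk8ip1 (0.10) followed, and their ranges over the control lists overlapped. Map3k13 (-0.11) and Mapk8ip3 (-0.36) were lowest, and their ranges overlapped too.

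No change in level was detected at any of the 7 promoters. By limma with Benjamini-Hochberg adjustment over the 8669 genes, 0 genes passed 0.05 in either direction (0%), and the adjusted p was 0.998 for each of the 7. At an unadjusted p under 0.05 there were 285 genes, none of them among the 7. The largest difference was that of Mapk8ip1, -0.25 ± 0.17 (SE, log2, 4xIOP minus control) with a 95% interval of -0.61 to 0.11. Its centred levels were 0.12, 0.28 and -0.11 in control and -0.13, -0.05 and -0.27 in 4xIOP, so that control replicate 3 lay among the 4xIOP lists. Mapk8ip3 differed by -0.17 ± 0.19 and Sarm1 by 0.17 ± 0.17, the latter with an interval of -0.18 to 0.52. With lists left out, Mapk8ip1 differed by -0.35 when control replicate 3 was dropped and by -0.14 when control replicate 2 was. Mapk8ip3 differed by -0.35 and -0.06 when control replicates 1 and 2 were dropped, and Sarm1 by 0.11 and 0.29 when 4xIOP replicates 1 and 3 were, these being the extremes for each gene. Which gene differed most thus depended on the list left out. Map3k12 (-0.05), Map3k13 (0.06), Mapk8 (-0.02) and Mapk9 (-0.03) were nearer to 0, and the widest interval of these 4 was that of Mapk9, -0.45 to 0.39. The groups overlapped for all 7 genes, while they did not overlap for 8.54% of the 8669. The median difference of the 7 was -0.03, beside -0.01 for all genes tested. By the names the lists carry, the direction of the mean difference turns for Mapk8ip1, Sarm1, Mapk8, Map3k12 and Map3k13. Mapk8ip1 is then no longer the largest. For Map3k13 the lists named for the pressure elevation (-0.18, -0.30 and -0.10) then all lie below those named as control (0.15, -0.04 and 0). No fit was made by these names.

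These intervals say how large a difference could have gone unseen. On simulated levels with the spread of the 8669 genes, the same test recovered 79.5% of promoters changed by 1 on the log2 scale, in a set of 200, with 9 false calls. The simulation drew independent noise for each gene and list and took the labels as right. It therefore sets no bound on what was missed if the carried names are right. Without the centring, all genes together were shifted by -0.27, and Sarm1 and Map3k13 changed sign (to -0.10 and -0.21). The signs of Map3k12, Mapk8 and Mapk9 changed with 1 list left out, as did that of Map3k13. Within the classes of fragment length, Mapk8ip1 differed by -0.21 (longer) and -0.36 (shorter) and Sarm1 by 0.17 and 0.05, while 4 genes had opposite signs in the longer and the shorter class: Mapk8 (-0.31 and 0.20), Mapk8ip3 (0.18 and -0.30), Map3k12 (-0.15 and 0.03) and Map3k13 (0.15 and -0.03).

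**Figure D4:**
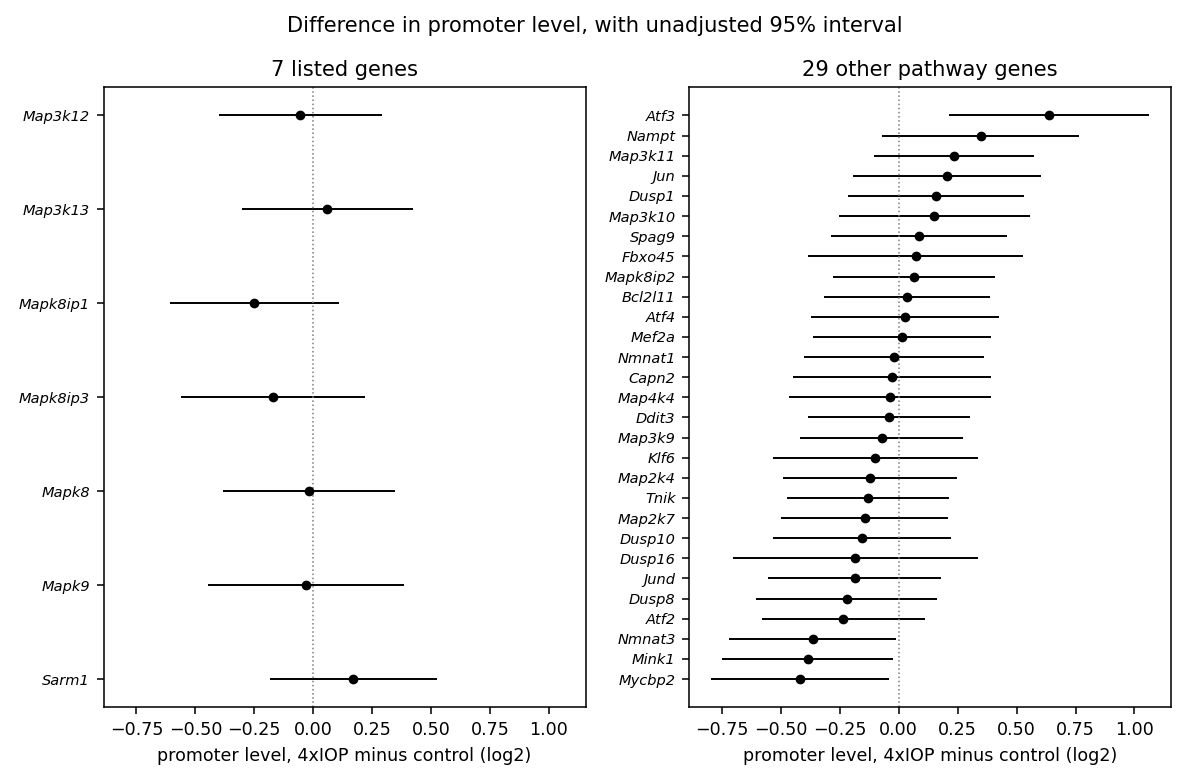
Difference in promoter level (4xIOP minus control, log2, points) with unadjusted 95% intervals from limma (lines), for the 7 listed genes (left) and the 29 other pathway genes with a peak in all 6 lists (right). All 7 intervals on the left include 0; on the right those of Atf3, Nmnat3, Mink1 and Mycbp2 do not, before adjustment.

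Most of the recurrent peaks away from the genes' own promoters lay near a start of a neighbour. Of the 51 regions, 20 lay at the genes' own promoters, 15 near a start of another gene and 16 near none. Away from own promoters the control lists held 16, 14 and 30 peaks and the 4xIOP lists 13, 15 and 9, with means of 20.0 ± 8.72 and 12.3 ± 3.06 (SD, n = 3). The difference of -7.67 peaks was -2.67 without control replicate 3 and -0.333 with 16195 peaks from each list. Control replicate 3 also held 15 of the 18 regions found in a single list. Regions away from own promoters in at least 5 lists numbered 10, and 9 of them lay within reach of another start. No share over all regions is given here for these counts, so they only describe these loci.

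The strongest of these lay at the neighbouring starts of Spsb3 and Nubp2, past the 3′ end of Mapk8ip3 (chr17:24886692-24887699). It had 47, 62 and 98 fragments in control and 51, 50 and 44 in 4xIOP, with fold percentiles of 95.5 to 99.4. On the rank-based score used for regions shared by all lists it differed by 0.60 ± 0.32 (SE, limma, unadjusted p = 0.0766), the largest difference among the 14 member regions fitted. Ranked by recovered fragments in place of fold, it differed by 0.11 (unadjusted p = 0.712), and with lists left out by between 0.42, when control replicate 3 was dropped, and 0.79, when control replicate 2 was. The lists named for the pressure elevation had fold percentiles of 95.8, 97.9 and 98.4 there, and those named as control 95.5, 99.4 and 97.8. By these names the groups overlap, and no fit was made. The other neighbours in all 6 lists were Pex16 beside Mapk8ip1, Tmem41a beside Map3k13, Poldip2 and Tmem199 beside Sarm1, and 2 regions at Eme2, Mrps34 and Nme3 inside the Mapk8ip3 body. An intronic region of Map3k13 (chr16:21846026-21846785) was called in all 6 lists, with 22, 25 and 49 fragments in control and 22, 28 and 25 in 4xIOP, near the start of the noncoding RNA Gm26744. In 5 lists there were a region at Ehhadh upstream of Map3k13 and an exonic region of Mapk8ip1 (chr2:92388837-92389729) near the microRNA gene Mir7000.

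Only 1 region in at least 5 lists was near no annotated start. It lay past the 3′ end of Mapk10 (chr5:102905327-102906234) and had 22, 26 and 42 fragments in control and 22 and 40 in 4xIOP replicates 1 and 2, with no peak in 4xIOP replicate 3. The 4xIOP lists that lacked the Mapk10 promoter peak held this one, and the list that had a promoter peak lacked it. The 200 bases around its highest-fold summit are shown on the plus strand, as the sequence of the one recurrent element near no start, and hold none of the 4 motifs.
Mapk10 downstream region, chr5:102905797-102905996, plus strand: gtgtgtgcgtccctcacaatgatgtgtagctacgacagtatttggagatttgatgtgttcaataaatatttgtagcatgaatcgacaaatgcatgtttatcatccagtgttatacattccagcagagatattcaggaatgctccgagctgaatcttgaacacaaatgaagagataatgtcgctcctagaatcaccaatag

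Its CpG ratio was 0.661, and 39.0% of its bases were G or C, against a median of 64.0% in windows of that length over all 13826 regions in at least 5 lists. Across the 14 member regions called in all 6 lists, 7 of them at own promoters, limma with Benjamini-Hochberg adjustment over the 10529 such regions called 0 (0% in either direction, 334 at an unadjusted p under 0.05). The score differences ran from -0.34 to 0.60, with 8 above 0 and 6 below, and the groups overlapped in all 14, where 8.36% of the 10529 did not overlap. The score test is coarse. On simulated scores, drawn in the same way as the levels, it recovered 0% of changes of 1 and 78.0% of changes of 2. These were sets of 200 among 10529 regions. Besides the Mapk10 promoter, 1 region was held by every control list and none of the 4xIOP lists, near the start of the noncoding RNA Gm26518 downstream of Map3k12 (chr15:102482744-102483244, 32, 28 and 49 fragments). In the opposite direction there were 0. These 2 of 51 regions stand beside 1.05% of all 39942 regions held by the control lists alone and 0.015% by the 4xIOP lists alone. By the names the lists carry, neither of the 2 would be exclusive, and their direction would turn. Control replicates 1 and 2 are named for the pressure elevation and control replicate 3 as control.

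Around the 10 genes, 38 further genes of the pathway were examined as a list. Promoters of 29 were marked in all 6 lists, 3 in none (Ecel1, Stmn2 and Gap43, genes known from injured or growing neurons) and 6 in 1 to 5 lists, beside the 39.5% of all genes marked in all lists and the 42.4% marked in none. The kinases that feed or form the relay were marked almost throughout, with 8 of 9 in all lists and Map3k5 in 5. All 4 of the scaffolds and the ubiquitin ligase and all 4 JNK phosphatases (Dusp1, Dusp8, Dusp10 and Dusp16) were marked in every list. Of 12 targets, 9 were, including Jun, Atf3 and Ddit3. The proapoptotic genes Bbc3 and Hrk were marked in control replicate 3 only. Of 9 axon and NAD genes 4 were marked in all lists (Nmnat1, Nmnat3, Nampt and Capn2). Capn1, a calcium-dependent protease, was the only one of the 38 with a difference of 2 lists between groups, beside 2.69% of all genes in the same direction, a share like that of 1 in 38. It had 21, 24 and 20 fragments in control, 23 in 4xIOP replicate 3, and none was called in the other 2 4xIOP lists. As for Mapk10, this direction would turn by the names the lists carry.

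**Figure D5:**
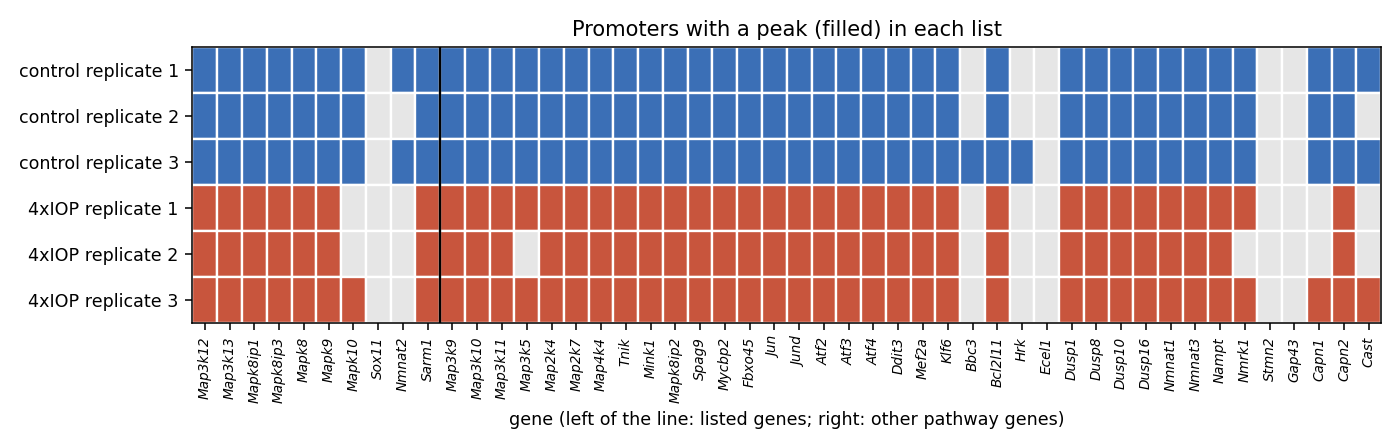
Promoters with a peak (blue control, red 4xIOP; grey no peak) in each list (rows) for the 10 listed genes, left of the line, and 38 other pathway genes, right of it. Most columns are filled in all 6 rows; Mapk10 and Capn1 share the same pattern, with grey in 4xIOP replicates 1 and 2.

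Of the 29 genes with a level in all lists, 0 were called higher and 0 lower by limma with Benjamini-Hochberg adjustment (adjusted p = 0.998 for each gene named here), and 4 had an unadjusted p under 0.05, beside 285 of all 8669 genes. The median difference of the 29 was -0.04. The 4 are named here because of their values. Atf3, an injury-induced transcription factor that pairs with Jun, had centred control levels of 0.08, -0.04 and -0.56 and 4xIOP levels of 0.12, 0.70 and 0.57, a difference of 0.64 ± 0.20 (SE). All 4xIOP lists lay above all control lists, the nearest being replicate 1 of each group. Mycbp2, the ubiquitin ligase known to act on DLK and NMNAT2, had 0.16, 0.08 and 0.23 in control and -0.09, -0.61 and -0.10 in 4xIOP, a difference of -0.42 ± 0.18. Mink1, a kinase upstream of the relay (-0.39), and Nmnat3, the mitochondrial NMNAT (-0.37), also lay lower in all 4xIOP lists. In the longer and the shorter class of fragment length the differences were 0.33 and 0.87 for Atf3, -0.50 and -0.25 for Mycbp2, -0.58 and -0.09 for Mink1 and -0.31 and -0.41 for Nmnat3. By the names the lists carry, the groups overlap for all 4, and the direction of the mean difference turns for Mink1, Mycbp2 and Nmnat3. Groups did not overlap in 2 of the 29 with 4xIOP above and in 4 with 4xIOP below, beside 4.15% and 4.38% of the 8669 genes.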

How the data were processed

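H3K27ac ChIP-seq of 6 retinas (3 control, 3 4xIOP) was deposited as 1 peak list per sample, called per sample. Per the labels, the build was mm10 (GRCm38) and the tools were STAR 2.7.8a, MACS2, HOMER, edgeR and bedtools 2.29.2. Their roles and the peak threshold are not stated for the ChIP-seq lists in the sources used here, and the lowest deposited −log10 q was 1.31. The deposited fold is the authors' ratio of the summit to a local background, and the −log10 p and −log10 q are those of the authors' caller. The deposited integer score was not used.

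Summit fragments and background were recovered from fold and p under a Poisson model, returning the deposited −log10 p to within 0.001 in no less than 99.994% of peaks. The lowest background of a list was its genome mean, equal to 87.4 to 173 fragments per 10000 bp. Intervals cover counting error only. No 2 lists shared more than 0.00617% of their intervals.

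Peaks were joined to GENCODE vM21 basic genes (overlap of at least 1 bp). Levels and the normal scores of fold ranks were fitted with limma 3.58.1 in R 4.3.3, all 6 lists, no covariate, two-sided, Benjamini-Hochberg threshold 0.05, over all genes or regions found in all 6 lists. The study's methods state no test for these lists. The fits were tested on simulated data. Fragment-length classes were noticed in the data. Counts over the genes were given no p. Alternatives were the q threshold (−log10 q of at least 5), equal numbers of peaks, lists left out, a replicate block, fragment class, promoter window, summit overlap, centring and, added after the data were seen, peaks nearest to a start of the gene itself.

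The genes and lists were chosen with earlier results of these data known. All 10 listed genes are named. Of their other regions, those in at least 5 lists are named (the 3 of highest mean percentile where there were more than 3), and of the other pathway genes those whose marking differed by 2 or more lists, with exceptions stated. Promoter sequences came from RefSeq (GRCm38.p6), and 400 of 400 compared entries were identical to the genome. 1 item of the marker lists is not reported here.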

Additional observations from a re-analysis of the deposited data

How the results depend on the processing

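The 0 calls of limma with Benjamini-Hochberg adjustment in both directions held for levels and region scores under every alternative run, with 6 (no centring) to 628 (without 4xIOP replicate 3) genes and 251 to 701 regions at an unadjusted p under 0.05. The difference in genes marked went from -1.33 to 0 with equal numbers of top peaks and ranged from -1.67 to -1.17 with lists left out. The count marked in all control lists only went from 0 to 1 with 1-kb promoters and ranged from 0 to 1 with lists left out. The difference in peaks away from own promoters was -7.67, and it was -21.0 in the 2 lists whose carried name is that of the label (1 list per group), and -10.7 to -2.67 with lists left out. Signs of the level differences, none of which was called, turned when lists were left out for Map3k12 (-0.095 to 0.0076, above 0 without 4xIOP replicate 1), Map3k13 (-0.019 to 0.19, below 0 without control replicate 2), Mapk8 (-0.094 to 0.12, above 0 without control replicate 1 or, at 0.07, without 4xIOP replicate 2) and Mapk9 (-0.13 to 0.15, above 0 without 4xIOP replicate 2 or, at 0.14, without control replicate 3). They also turned for Map3k12 with 1-kb promoters (0.0062), for Mapk8 with ranks as scores (0.018), for Mapk9 with the fragment class as a term (0.084), and without centring for Map3k13 (-0.21) and Sarm1 (-0.10). The cause was not tested. In all, 191 alternative values were labelled the same, 11 turned sign and 5 moved. For level and score differences, the same meant an unchanged sign and side of the threshold. For counts it meant an equal or close count, and 0 beside 0 was the same. For differences in genes marked or in peaks it meant a change below the larger group SD (0.577 and 8.72). By that rule -0.333 peaks, with equal numbers of top peaks, was the same as -7.67. Mapk8ip1 had no value at −log10 q of at least 5, Sarm1 none with 1-kb promoters, and Sarm1 and Map3k13 none when peaks were given to the nearest gene only. With the replicate number as a block there were 0 calls as well (286 genes and 289 regions at an unadjusted p under 0.05). Deviations of same-numbered lists correlated at -0.058, 0.017 and -0.020, so the numbers were not taken to pair the samples.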
